A study of Homo sapiens with 18 samples.

Results

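RNA bound to G3BP1 was compared between arsenite-treated and vehicle-treated U251-MG cells, a human astrocytoma line. The comparison takes in 6 of the study's 18 exon arrays. They were chosen by title: 3 carry RNA from G3BP1 immunoprecipitates (RIPs) of cells given 500 µM arsenite, and 3 carry RNA from G3BP1 RIPs of cells given DMSO, the vehicle. RNA was taken at 30 min in both groups, and the labels call the 3 arrays of a group biological replicates of this line. The other 12 arrays hold TIAR RIPs and input RNA, each with and without arsenite and with 3 replicates. No group is a mock immunoprecipitate, so RNA that sticks to beads or antibody was not measured apart. Each value is the log2 signal of 1 transcript cluster, the probes assigned to a gene. The arrays describe the make-up of the recovered RNA and not its amount, so a change in a gene's share cannot be told apart from a change in the size of the pool around it.

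G3BP1 is an RNA-binding protein that nucleates stress granules, in which stalled mRNA gathers with small ribosomal subunits and proteins in the cytoplasm. Arsenite is an oxidant that triggers phosphorylation of the translation factor eIF2 and so blocks initiation, which frees mRNAs from ribosomes. A RIP recovers RNA bound to the protein in lysate, inside or outside granules. Messages for secreted and membrane proteins are normally translated at the endoplasmic reticulum (ER), and those for nuclear and soluble proteins mostly in the cytosol.

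Markers on the 6 arrays bore out the labelled line in part. VIM, an intermediate filament of astrocytoma cells, lay between 13.01 and 13.30, and GFAP, the defining astrocyte filament, between 9.29 and 9.75. S100B and AQP4, markers of mature astrocytes, lay lower in the range of the arrays, between 4.73 and 5.27 and between 4.62 and 4.77. PTPRC, the pan-leukocyte marker, stayed between 3.51 and 3.76, and EPCAM, an epithelial marker, between 3.34 and 3.62. EPCAM does not stand for its list. Of 9 epithelial markers measured 6 had a mean over all arrays above 7.88, the median of all values. The mean of that list was 8.04 to 8.09 on vehicle and 8.12 to 8.26 on arsenite arrays. Of 16 astrocyte and glioma markers TNC and EGFR rose and GLUL fell with arsenite, and of 10 neuronal markers SYT1 and GAD1 were called, both calls being lost without arsenite replicate 1.

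Vehicle replicate 3 stood apart from its group. Its median signal was 7.80, against 8.04 and 8.05 on vehicle replicates 1 and 2 and 7.97 to 8.07 on the arsenite arrays. The shortfall depended on signal level. In 5 classes of equal size, ranked by unstressed input signal, the median difference between vehicle replicate 3 and the mean of the other vehicle arrays was 0.032, 0.121, -0.175, -0.436 and -0.319 from dimmest to brightest. With all arrays the median arsenite change climbed from -0.020 in the dimmest class to 0.113 in the brightest. Without vehicle replicate 3 the 5 medians lay between -0.020 and 0.021, so the climb rested on that array. A list count that moved by over 1.5 times, and by 2 or more genes, when 1 of the 6 G3BP1 arrays was left out is given below with that array named. Among the input arrays, arsenite replicate 1 stood apart, with a median of 7.73 against 7.90 and 7.92 on arsenite replicates 2 and 3. Its upper quartile was 9.17 against 9.54 and 9.57, and the input counts of lists below include it.

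**Figure D1:**
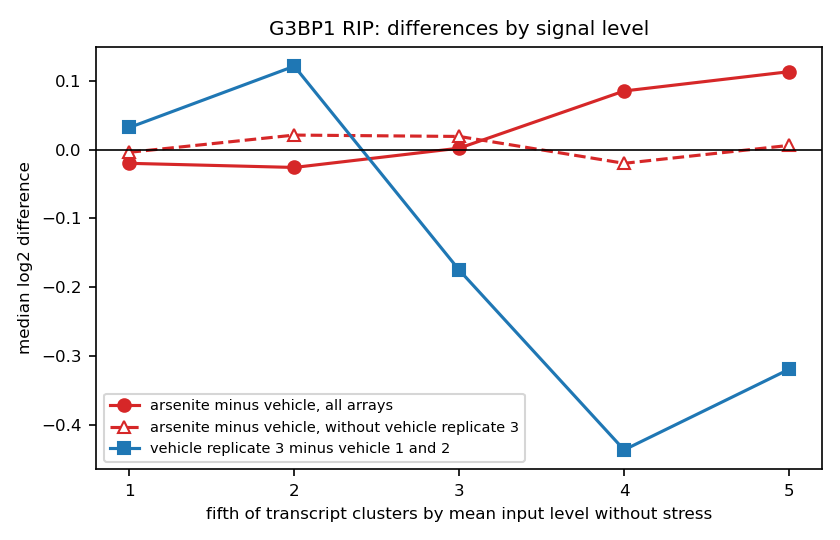
Median log2 difference (vertical axis) in 5 equal classes of transcript clusters ranked by input signal without stress (horizontal axis), for arsenite minus vehicle with all arrays, the same without vehicle replicate 3, and vehicle replicate 3 minus the other vehicle arrays. Vehicle replicate 3 reaches -0.436 in the second brightest class, while the arsenite medians without it stay between -0.020 and 0.021.

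Over all 22011 transcript clusters, limma's moderated test with Benjamini-Hochberg adjustment called 3189 at an adjusted p under 0.05, or 14.5% of those tested. Of these, 2290 were higher with arsenite (10.4%) and 899 lower (4.08%), so 71.8% of calls were higher. Without vehicle replicate 3 it called 3940 (17.9%), 1835 higher (8.34%) and 2105 lower (9.56%), and 46.6% of calls were higher. The split moved with the scaling too. Centring the arrays on their medians gave 2462 higher (11.2%) and 1759 lower (7.99%), so 58.3% of all 4221 calls (19.2%) were higher. The share was 55.5% with quantile normalization and 58.7% with cyclic loess. The balance of higher against lower calls thus depended on these choices. Called either way were 1732 higher (7.87%) and 854 lower (3.88%) transcript clusters. Leaving the array out cost 558 higher and 45 lower calls, added 103 higher and 1251 lower ones, and turned the sign of 0 calls. With the spread taken from the 6 arrays alone, 605 higher and 261 lower calls were made. With arsenite replicate 1 left out 1490 were higher, and with arsenite replicate 2 or 3 or vehicle replicate 1 or 2 left out 536 to 577 were lower.

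At the level of genes, taking the brightest transcript cluster of each of 14232 symbols, 1696 rose (11.9%) and 587 fell (4.12%), or 16.0% in all. Without vehicle replicate 3 the counts were 1323 (9.30%) and 1538 (10.8%), or 20.1% in all. Called both with all arrays and without vehicle replicate 3 were 1270 higher genes (8.92%) and 575 lower ones (4.04%). Such calls are said below to have held, which concerns that array only. As leaving it out raised the lower count, nearly all falls held, and holding says little about them. The median change over all genes was 0.0065, and 0.0087 without that array. Calls were more frequent at higher input signal. Of 4403 transcript clusters in the dimmest class 25 were higher and 19 lower, and of 4402 in the brightest 1024 and 395. Shares of all genes given beside lists are not matched on signal. In both directions together, the share called was near 16.0% for ubiquitin genes (14.6%), heat shock (15.6%), mitosis (15.7%) and translation factors (18.8%). Leaving out another array brought the count of lower genes down to between 337 and 357 for arsenite replicates 2 and 3 and vehicle replicates 1 and 2, and leaving out arsenite replicate 1 brought the higher genes to 1097.

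The largest rises that held, in genes whose arsenite and vehicle arrays did not overlap, mixed transcription factors, matrix and adhesion genes, scaffolds and organelle RNAs. EGR1, an immediate early zinc finger factor, gave 8.49, 8.64 and 8.55 with vehicle and 12.49, 12.44 and 12.32 with arsenite. Its change was 3.86 ± 0.09 (log2, SE of the fit, n = 3 arrays per group; limma adjusted p = 1.64e-12). No vehicle array came near an arsenite array, and vehicle replicate 3 lay between the other vehicle arrays. FOS, a partner in the AP-1 factor, gave 7.84, 8.07 and 8.31 against 10.12, 10.23 and 9.80, a change of 1.98 ± 0.13 (adjusted p = 7.6e-07). IQGAP1, a scaffold of cell adhesion and actin, gave 10.62, 10.62 and 10.50 against 12.29, 12.26 and 12.31, a change of 1.71 ± 0.08 (adjusted p = 9.68e-09). The arrays of IQGAP1 lay closer together within each group than those of FOS. The changes of EGR1, FOS and IQGAP1 were 3.85, 2.10 and 1.67 without vehicle replicate 3.

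PPDPF, a small protein linked to differentiation of the exocrine pancreas, gave 11.00, 11.07 and 10.76 with vehicle and 12.41, 12.42 and 12.41 with arsenite. Its arsenite arrays were nearly equal, and the change was 1.47 ± 0.12 (adjusted p = 3.53e-06). It was 0.01 ± 0.12 (adjusted p = 0.985) in input and 0.19 ± 0.12 (adjusted p = 0.442) in the TIAR RIP. MALAT1, a nuclear long noncoding RNA, gave 7.93, 8.15 and 6.52 with vehicle and 9.68, 9.32 and 9.68 with arsenite. Vehicle replicate 3 lay far below the other vehicle arrays, and leaving it out took the change from 2.03 to 1.52 (adjusted p = 2.13e-05). With the spread of the 6 arrays alone the adjusted p of MALAT1 was 0.0517. FBN1, the microfibril protein fibrillin, rose by 1.41, TRAM2, a protein of the ER translocation channel, by 1.23, TEX261, which takes part in ER export, by 1.38, and YLPM1, a nuclear protein, by 1.40. Input and TIAR changes of TRAM2 were -0.31 ± 0.13 (adjusted p = 0.135) and 0.03 ± 0.13 (adjusted p = 0.966).

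XRCC4, a scaffold of DNA end joining, headed the falls. It gave 10.23, 10.22 and 9.72 with vehicle and 8.71, 8.62 and 8.45 with arsenite, a change of -1.47 ± 0.24 (adjusted p = 0.000774), and -1.64 without vehicle replicate 3. SNW1, a splicing and transcription cofactor, gave 10.19, 10.12 and 9.69 against 8.87, 8.55 and 8.65, a change of -1.31 ± 0.16 (adjusted p = 7.08e-05). HNRNPD, an AU-rich element binding protein also called AUF1, gave 13.42, 13.40 and 13.26 against 12.23, 12.23 and 12.13, a change of -1.16 ± 0.11 (adjusted p = 9.97e-06). In all 3 genes vehicle replicate 3 was the lowest vehicle array and so lay nearest to the arsenite arrays. POLR2B, a core catalytic subunit of RNA polymerase II, fell by 1.18, GMPPB, an enzyme making the mannose donor for glycosylation, by 1.17, and DNAJA2, an HSP70 cochaperone, by 1.29. C11orf54, FAM98A, IK, SRP54 and TERF2IP were the others whose calls survived leaving out any 1 of the 6 arrays, with changes from -1.22 to -1.11. The calls of ZNHIT6, PPWD1, NKIRAS1 and UTP15 in this set were lost when 1 of several arrays was left out, among them arsenite replicate 2 and vehicle replicate 1 for each of the 4.

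**Figure D2:**
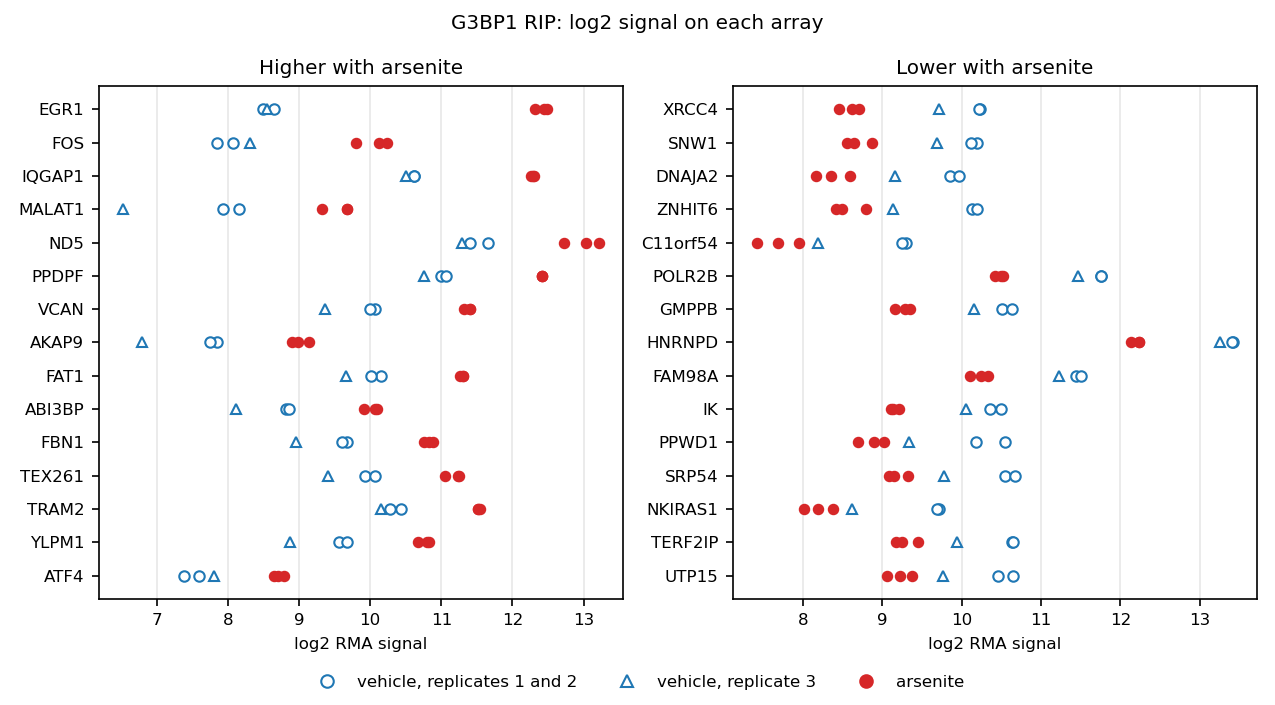
Log2 signal on the 6 G3BP1 arrays (horizontal axis) for the 15 rising and 15 falling genes with the largest changes among those called with and without vehicle replicate 3; the legend gives the marker of vehicle replicates 1 and 2, of vehicle replicate 3 and of the arsenite arrays. Only genes whose groups do not overlap were eligible to be shown, so the gap between groups is a condition and not a result. Vehicle replicate 3 is the lowest vehicle array in most of the genes.

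Immediate early genes are transcribed within minutes of a stimulus without new protein synthesis. Several are driven by serum response factor, which binds the CArG box, or by CREB, which binds the cyclic AMP response element (CRE). Of 44 measured, 15 rose and 1 fell, with a median of 0.19, and 13 rises held. The promoters of EGR1 and SRF are shown because they were those among the list's 34 promoters in the RefSeq table (GRCh38.p14) that hold a CArG box. The windows run from 250 bases before to 50 after the start site, EGR1 at chr5:138465229-138465528 and SRF at chr6:43171019-43171318, both on the plus strand. Capitals mark the CArG boxes.
EGR1: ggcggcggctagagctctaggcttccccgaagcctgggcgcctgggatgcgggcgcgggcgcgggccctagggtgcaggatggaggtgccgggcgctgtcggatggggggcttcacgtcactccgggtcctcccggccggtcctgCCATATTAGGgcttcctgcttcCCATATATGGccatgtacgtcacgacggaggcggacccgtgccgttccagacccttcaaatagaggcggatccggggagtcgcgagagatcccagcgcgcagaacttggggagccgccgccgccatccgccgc
SRF: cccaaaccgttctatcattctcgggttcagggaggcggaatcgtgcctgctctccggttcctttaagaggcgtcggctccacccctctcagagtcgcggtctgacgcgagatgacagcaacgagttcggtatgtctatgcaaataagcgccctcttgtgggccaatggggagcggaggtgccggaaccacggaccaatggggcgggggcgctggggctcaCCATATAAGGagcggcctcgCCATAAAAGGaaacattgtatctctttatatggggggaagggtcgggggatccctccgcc
In EGR1 the boxes CCATATTAGG and CCATATATGG begin 105 and 83 bases before the start site, and in SRF the boxes CCATATAAGG and CCATAAAAGG begin 30 and 10 bases before it. The CArG box, searched by that name on both strands, was found in 351 of 27305 promoters (1.29%) and in 2 of the list's 34 (5.88%). The CRE, spelled TGACGTCA and its own reverse complement, was found in 540 of the 27305 (1.98%) and in 3 of the 34 (8.82%), those of DUSP1, JUND and MAFF.

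The genes with these motifs, named here for their promoters and after their values were seen, did not move alike. SRF gave 10.82, 10.81 and 10.87 against 11.16, 11.21 and 11.12, a change of 0.33 ± 0.07 (adjusted p = 0.00586), while it fell by 0.41 in input. The difference between the SRF changes was 0.74 ± 0.10 (adjusted p = 0.000207). DUSP1, a phosphatase of MAP kinases, gave 10.51, 10.64 and 10.29 against 11.17, 11.24 and 11.04, and JUND, an AP-1 subunit, rose by 0.43. In input DUSP1 rose by 0.80 and JUND fell by 0.30. MAFF, a small leucine zipper factor, did not pass the test (-0.13 ± 0.11 (adjusted p = 0.542)). EGR1 changed by 3.79 in input and 3.01 in the TIAR RIP, so its G3BP1 change differed from input by 0.07 ± 0.13 (adjusted p = 0.758) and from the TIAR RIP by 0.85 ± 0.13 (adjusted p = 0.000446). CCN1, a matrix signalling protein, rose by 0.84 and IER3, an early response survival protein, by 0.62. GADD45A, a growth arrest gene, was the member that fell (-0.55), and its call was lost without arsenite replicate 1 or 3 or vehicle replicate 1 or 2.

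AU-rich cytokine and growth factor mRNAs decay quickly through elements in their tails. Of 31 measured 11 rose and 0 fell, with a median of 0.39, or 0.17 without vehicle replicate 3. The rises held for 10, the rises numbered 7 without arsenite replicate 1, and the falls 2 without vehicle replicate 3. LIF, a cytokine of the interleukin 6 family, gave 9.38, 9.37 and 8.97 against 10.36, 10.26 and 10.23, a change of 1.05 ± 0.10 (adjusted p = 1.28e-05), or 0.91 without vehicle replicate 3. Its arsenite arrays lay together, well above every vehicle array. LIF changed by 0.08 ± 0.10 (adjusted p = 0.654) in input and by 0.01 ± 0.10 (adjusted p = 0.989) in the TIAR RIP. PLAUR and PLAU, the urokinase receptor and urokinase, rose by 0.67 and 0.57, and THBS1, a matrix glycoprotein, by 0.51. IL11, of the LIF family, rose by 0.80 here and fell by 0.45 in the TIAR RIP. IL6ST, the shared receptor chain of that family, gave 10.62, 10.64 and 9.69 against 11.50, 11.36 and 11.37, a rise of 1.09, or 0.78 without vehicle replicate 3. STAT3, the transcription factor downstream, fell by 0.33. In the whole list of LIF and oncostatin signalling 8 of 23 rose and 1 fell, 3 rises held, and the rises numbered 3 without vehicle replicate 3, arsenite replicate 1 or arsenite replicate 2.

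Genes of the cell surface and the matrix rose often. Of 44 integrins and adhesion receptors 25 rose, 0 fell and 20 rises held, with a median of 0.41, or 0.32 without vehicle replicate 3. ITGA5, the fibronectin receptor subunit, gave 10.78, 10.70 and 10.45 against 11.43, 11.37 and 11.32, a change of 0.72 ± 0.09 (adjusted p = 8.98e-05), or 0.63 without vehicle replicate 3. MCAM, an adhesion molecule of the immunoglobulin family, rose by 0.66, L1CAM by 0.74 and NCAM1 by 0.82. Of 85 collagens, matrix and secreted proteins 35 rose, 0 fell and 32 held, with a median of 0.19, or 0.17 without vehicle replicate 3. LAMA5, a basement membrane laminin chain, gave 9.96, 9.86 and 9.89 against 10.77, 10.81 and 10.84, a change of 0.90 ± 0.07 (adjusted p = 2.48e-06). All 3 vehicle arrays of LAMA5 lay together. LAMB2, another laminin chain, rose by 0.91, TNC, a matrix glycoprotein of gliomas, by 1.04, CLU, a secreted chaperone, by 0.72 and VCAN, a matrix proteoglycan, by 1.56. In the test with the 6 arrays alone 10 of the adhesion list and 19 of the matrix list rose.

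Many of these genes rose in the other fractions too. Of the matrix list 24 rose in input, where 2.08% of all genes rose and 13.5% fell (15.6% in all), and 32 in the TIAR RIP, where 6.15% rose and 7.15% fell (13.3% in all). Of the adhesion list 9 rose in input and 25 in the TIAR RIP. TNC rose by 0.90 in input and also in the TIAR RIP, and its G3BP1 change differed from input by 0.15 ± 0.13 (adjusted p = 0.49). LAMA5 rose by 0.34 in input, and its G3BP1 change exceeded that by 0.56 ± 0.10 (adjusted p = 0.00117). Over the matrix list the test of the difference from input called 9 members higher and 3 lower, against 17.0% and 2.24% of all genes.

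Of 49 genes of ER translocation, glycosylation and folding 15 rose and 1 fell, with a median of 0.27, or 0.13 without vehicle replicate 3. The rises held for 10 and numbered 9 without arsenite replicate 1, and the falls numbered 3 without vehicle replicate 3. In input 6 members rose and 0 fell, and in the TIAR RIP 21 rose and 0 fell. The test of the difference from the TIAR RIP called 3 members higher and 5 lower. SYVN1, the membrane ubiquitin ligase of ER-associated degradation, gave 9.99, 10.06 and 9.79 against 11.03, 10.99 and 10.95, a change of 1.04 ± 0.08 (adjusted p = 3.08e-06), or 0.97 without vehicle replicate 3. KDELR1, the retrieval receptor for ER proteins, rose by 0.88, HYOU1, an ER chaperone, by 0.56 and ERN1, the stress sensor IRE1, by 0.38. SRP54, the subunit of the signal recognition particle that binds signal sequences in the cytosol, was the member that fell with all arrays. It gave 10.55, 10.67 and 9.78 against 9.33, 9.08 and 9.15, a change of -1.15 ± 0.23 (adjusted p = 0.00325), with vehicle replicate 3 nearest to the arsenite arrays.

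Of 47 lysosomal genes 19 rose, 3 fell and 17 rises held, with a median of 0.35, or 0.21 without vehicle replicate 3. NEU1, the lysosomal sialidase, gave 10.55, 10.48 and 10.10 against 11.58, 11.72 and 11.53, a change of 1.23 ± 0.11 (adjusted p = 9.54e-06), or 1.09 without vehicle replicate 3. GRN, the progranulin precursor, gave 11.96, 11.93 and 11.88 against 12.74, 12.74 and 12.79, a change of 0.83 ± 0.09 (adjusted p = 3.33e-05). CD63, a tetraspanin of late endosomes, rose by 0.79 and MCOLN1, a cation channel, by 0.58. The falls with all arrays, named after their values were seen, were those of ATP6V1A (-0.73), ATP6V1E1 (-0.55) and ATP6V0D1 (-0.22), subunits of the lysosomal proton pump. The lower count was 5 without vehicle replicate 3 and 1 without arsenite replicate 1, arsenite replicate 3, vehicle replicate 1 or vehicle replicate 2. In the TIAR RIP 20 lysosomal genes rose and in input 11.

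CD68, a lysosomal glycoprotein that was listed here as a myeloid marker, gave 8.83, 8.83 and 8.55 against 9.59, 9.67 and 9.43, a change of 0.83 ± 0.10 (adjusted p = 6.41e-05), and rose by 0.36 in input. It was the 1 of 10 myeloid markers called, and the list's mean was 6.06 to 6.15 on vehicle and 6.16 to 6.27 on arsenite arrays. Its part in the lysosomal result was not tested.

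Solute carriers, a large family of membrane transporters, had 64 of 277 members higher and 0 lower, and 50 rises held. The lower count was 4 without vehicle replicate 3. SLC7A5, an exchanger of large neutral amino acids, gave 11.65, 11.76 and 11.72 against 12.47, 12.40 and 12.49, a change of 0.74 ± 0.06 (adjusted p = 4.21e-06). In input SLC7A5 fell by 0.34, and the difference between the changes was 1.08 ± 0.09 (adjusted p = 5.7e-06). SLC29A1, a nucleoside transporter, rose by 1.08, SLC9A8, a sodium and proton exchanger, by 0.77 and SLC10A3, a member of the bile acid transporter family, by 0.68. In input 9 solute carriers rose and 24 fell. Among 189 vesicle coats, SNAREs and RABs 21 rose and 13 fell. The share of that list called, in both directions together, was near the 16.0% of all genes. VAMP2, a SNARE of secretory vesicles, gave 8.58, 8.67 and 8.14 against 9.66, 9.64 and 9.61, a change of 1.17 ± 0.12 (adjusted p = 1.65e-05), and TMED3, a cargo receptor of the early secretory route, rose by 0.86. In that list the falls numbered 35 without vehicle replicate 3, 8 without arsenite replicate 2, 7 without arsenite replicate 3 or vehicle replicate 1 and 6 without vehicle replicate 2.

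Among 61 nuclear-encoded subunits of the respiratory chain 17 rose, 1 fell and 14 rises held, with a median of 0.28, or 0.13 without vehicle replicate 3. The falls numbered 6 without vehicle replicate 3. In input 0 rose and 1 fell, and in the TIAR RIP 14 rose and 0 fell. The test of the difference from the TIAR RIP called 4 members higher and 4 lower. NDUFA7, a complex I subunit, gave 10.17, 10.15 and 9.85 against 11.04, 11.02 and 10.74, a change of 0.87 ± 0.11 (adjusted p = 8.18e-05). UQCR10, a complex III subunit, rose by 0.90, and NDUFS8 and NDUFB9, of complex I, by 0.66 and 1.22. ND5, a complex I subunit encoded in the mitochondrial genome, gave 11.41, 11.65 and 11.29 against 13.04, 12.73 and 13.22, a change of 1.54 ± 0.12 (adjusted p = 2.23e-06). It was -0.01 ± 0.12 (adjusted p = 0.97) in input, and the difference between the changes was 1.55 ± 0.17 (adjusted p = 3.18e-05). ND6, encoded on the other mitochondrial strand, did not pass the test (0.71 ± 0.46 (adjusted p = 0.394)), and its arsenite replicate 2 lay near the vehicle arrays.

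Long cytoskeletal and scaffold proteins went both ways, with 14 of 47 higher and 5 lower, of which 12 and 5 held. Their median was 0.29 with all arrays and 0.03 without vehicle replicate 3, when 10 were lower. PLEC, the linker plectin, gave 9.21, 9.18 and 9.18 against 9.82, 9.73 and 9.81, a change of 0.60 ± 0.06 (adjusted p = 2.12e-05). FAT1, a giant cadherin, rose by 1.35. MYH9, nonmuscle myosin heavy chain, gave 12.60, 12.53 and 12.52 against 11.83, 11.80 and 11.87, a change of -0.71 ± 0.07 (adjusted p = 1e-05). In both PLEC and MYH9 vehicle replicate 3 lay with its group.

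**Figure D3:**
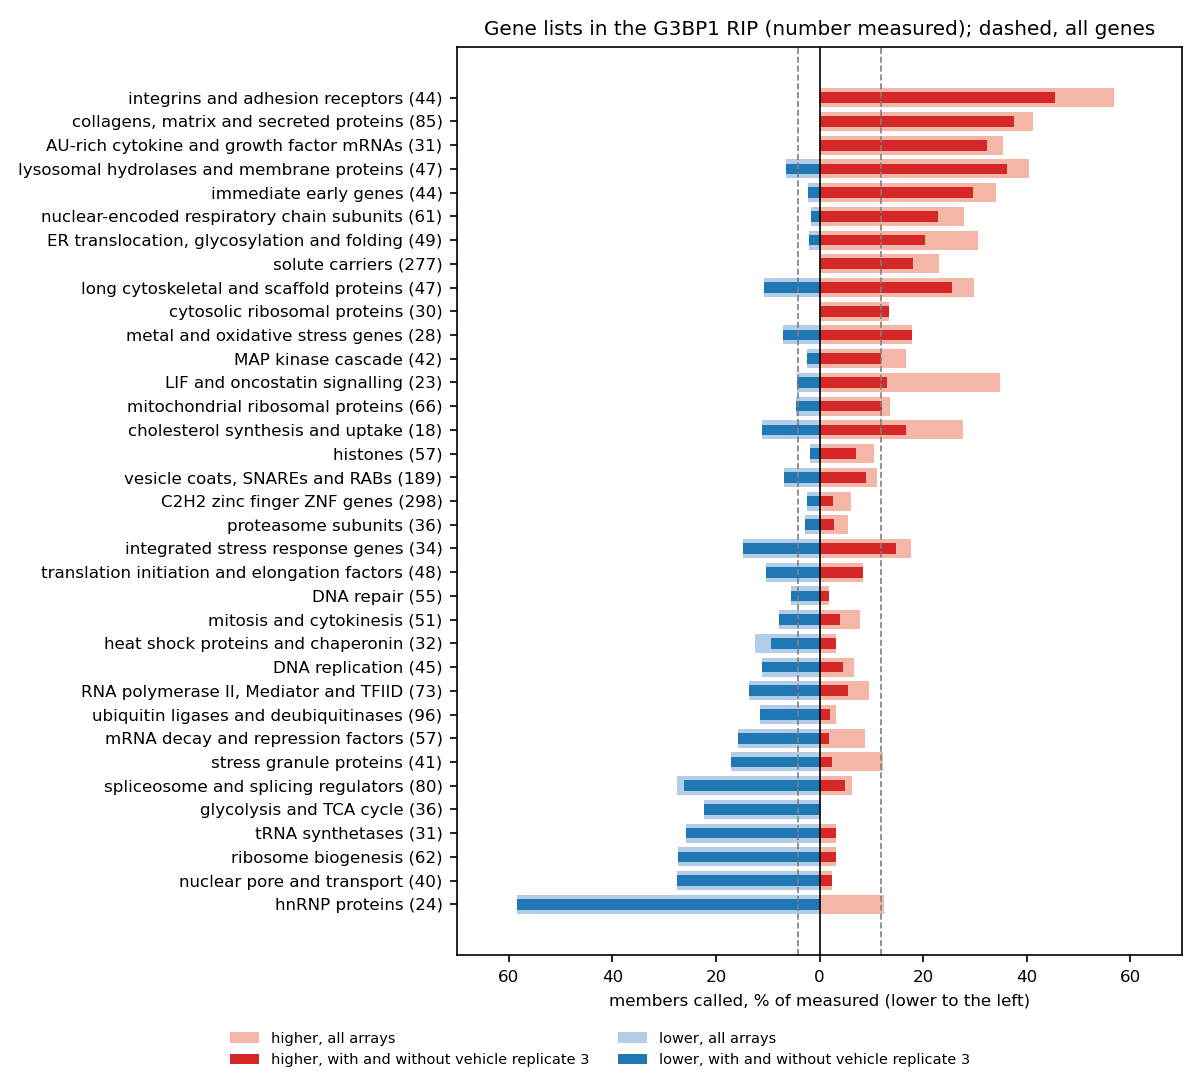
Percent of measured members called (horizontal axis) in each gene list (vertical axis), higher and lower with arsenite, in the G3BP1 RIP. Integrins, the matrix and lysosomal genes lie on the higher side, hnRNP proteins on the lower side, against 11.9% and 4.12% over all genes.

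Among the plotted lists, the hnRNP proteins had the largest share of lower calls. Among 24 hnRNP proteins, which package pre-mRNA, 14 fell and 3 rose, with a median of -0.40, or -0.49 without vehicle replicate 3. All 14 falls held and 0 of the rises did. The falls numbered 11 when any 1 of the arrays other than vehicle replicate 3 was left out. The rises numbered 0 without vehicle replicate 3, arsenite replicate 1, arsenite replicate 2 or arsenite replicate 3 and 1 without vehicle replicate 1. HNRNPA0 gave 12.17, 12.17 and 12.06 against 11.22, 11.24 and 11.14, a change of -0.94 ± 0.11 (adjusted p = 4.98e-05). HNRNPH1 fell by 1.02 and HNRNPH3 by 0.93. The hnRNP genes have close copies and processed pseudogenes, so probe signal shared between copies is uncertain. In input 2 fell and 1 rose, in the TIAR RIP 0 fell and 4 rose, and 11 had a G3BP1 change below their TIAR change.

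Among 80 spliceosome genes and splicing regulators 22 fell and 5 rose, with a median of -0.15, or -0.33 without vehicle replicate 3. The falls held for 21 and numbered 13 without arsenite replicate 3 or vehicle replicate 1. TRA2B, a splicing activator, gave 12.06, 11.97 and 11.94 against 11.40, 11.46 and 11.26, a change of -0.62 ± 0.09 (adjusted p = 0.00038), and DDX23, a spliceosomal helicase, fell by 0.55. SRRM2, a large scaffold of nuclear speckles, gave 11.70, 11.72 and 11.61 against 12.30, 12.23 and 12.35, a change of 0.62 ± 0.07 (adjusted p = 3.01e-05), against the direction of most called members. In the TIAR RIP 25 members rose and 0 fell. The test of the difference between the RIPs called 30 members lower and 2 higher, against 4.60% and 10.2% of all genes.

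Among 62 genes of ribosome biogenesis 17 fell and 2 rose, and all held. The lower count was 27 without vehicle replicate 3, 10 without arsenite replicate 2, arsenite replicate 3 or vehicle replicate 2 and 9 without vehicle replicate 1. NIP7, a factor of large subunit assembly, gave 11.98, 12.02 and 11.91 against 11.25, 11.27 and 11.15, a change of -0.74 ± 0.09 (adjusted p = 5.98e-05). BMS1, a GTPase of small subunit assembly, fell by 0.86, GAR1, of the pseudouridylating particles, by 0.84 and RRP12 by 0.43. In the TIAR RIP 17 members rose and 2 fell. RRP12 rose by 0.60 there, a difference of -1.03 ± 0.10 (adjusted p = 2.35e-05).

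Among 31 tRNA synthetases 8 fell and 1 rose, and the falls numbered 16 without vehicle replicate 3. NARS1, for asparagine, gave 12.14, 12.08 and 11.81 against 11.09, 11.08 and 10.99, a change of -0.96 ± 0.11 (adjusted p = 3.91e-05). FARSA, for phenylalanine, fell by 0.37 and AARS1, for alanine, by 0.45. QARS1, for glutamine, was the member that rose, by 0.51. It also rose by 0.44 in input and by 1.10 in the TIAR RIP. In the TIAR RIP 12 of 31 rose and 0 fell, and 17 had a G3BP1 change below their TIAR change.

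Among 40 nuclear pore and transport genes 11 fell and 1 rose, and all held. The falls numbered 20 without vehicle replicate 3, 6 without arsenite replicate 2 or vehicle replicate 2 and 7 without vehicle replicate 1. In input 8 members fell and 1 rose, and in the TIAR RIP 2 fell and 7 rose. The test of the difference from input called 3 members lower and 5 higher. Against the TIAR RIP it called 11 lower and 1 higher. IPO4, an importin, gave 12.29, 12.24 and 12.10 against 11.72, 11.67 and 11.61, a change of -0.54 ± 0.08 (adjusted p = 0.000233), IPO5 fell by 0.67 and XPO5, the exportin of miRNA precursors, by 0.64. NUP210, a nucleoporin that spans the nuclear membrane, was the member that rose. It gave 11.01, 10.99 and 10.82 against 11.61, 11.66 and 11.67, a change of 0.71 ± 0.10 (adjusted p = 0.000207), and rose by 0.70 in input and by 0.95 in the TIAR RIP.

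Among 36 genes of glycolysis and the TCA cycle 8 fell and 0 rose, and the lower count was 15 without vehicle replicate 3 and 4 without arsenite replicate 3 or vehicle replicate 1. ACO1, the cytosolic aconitase and iron sensor, gave 11.46, 11.46 and 11.16 against 10.64, 10.65 and 10.51, a change of -0.76 ± 0.11 (adjusted p = 0.000345), and PDHA1, of pyruvate dehydrogenase, fell by 0.47. SOD1, the cytosolic superoxide dismutase, gave 12.11, 12.15 and 11.64 against 11.03, 10.96 and 10.93, a change of -0.99 ± 0.13 (adjusted p = 0.000121). Among 28 metal and oxidative stress genes SOD1 and TKT fell while 5 rose. The rises numbered 3 without arsenite replicate 2 and the falls 9 without vehicle replicate 3. GPX4, the selenoprotein that reduces lipid peroxides, rose by 0.96. FTL, the ferritin light chain, rose by 1.37, with signal shared with its many pseudogenes uncertain.

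Among 32 heat shock proteins and chaperonin subunits 4 fell and 1 rose, with a median of -0.20, or -0.30 without vehicle replicate 3. The falls numbered 10 without vehicle replicate 3 and 2 without arsenite replicate 1, arsenite replicate 3 or vehicle replicate 1. HSPH1, a nucleotide exchange factor of HSP70, gave 12.28, 12.31 and 11.99 against 11.54, 11.32 and 11.49, a change of -0.74 ± 0.12 (adjusted p = 0.000669), while it rose by 0.87 in the TIAR RIP. In that RIP 14 members rose. DNAJB1, an HSP40, was higher by 0.55, or 0.33 without vehicle replicate 3, and its adjusted p was 0.0868 without arsenite replicate 1.

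**Figure D4:**
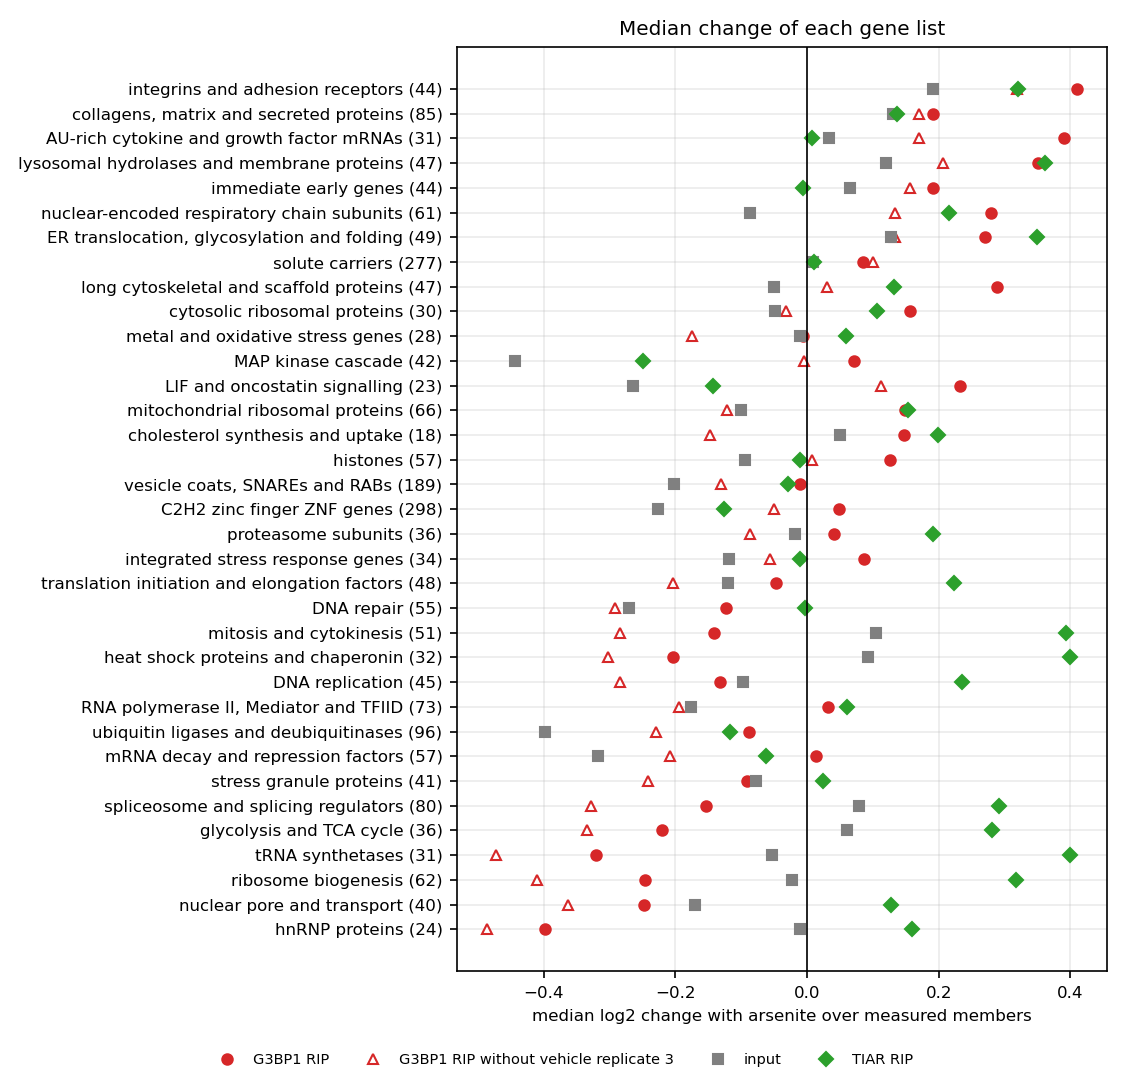
Median log2 change of each gene list (vertical axis) with arsenite in the G3BP1 RIP, with all arrays and without vehicle replicate 3, and in input and the TIAR RIP (horizontal axis). The hnRNP, splicing, tRNA synthetase and ribosome biogenesis lists have medians below 0 in the G3BP1 RIP and above 0 in the TIAR RIP (0.16, 0.29, 0.40 and 0.32).

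The mRNAs of G3BP1, G3BP2, TIA1 and TIAL1, which encode stress granule proteins, did not pass the test with all arrays. G3BP1 mRNA gave 12.61, 12.77 and 12.21 against 12.25, 12.25 and 12.11, a change of -0.33 ± 0.13 (adjusted p = 0.103). Vehicle replicate 3 lay near the arsenite arrays, and without it the change was -0.49 ± 0.10 (adjusted p = 0.00515). In input G3BP1 rose by 0.44, and the difference between the changes was -0.77 ± 0.18 (adjusted p = 0.00791). G3BP2, its paralog, changed by -0.42 ± 0.15 (adjusted p = 0.083), and by -0.61 ± 0.13 (adjusted p = 0.00527) without vehicle replicate 3. TIA1 changed by -0.19 ± 0.20 (adjusted p = 0.674), and TIAL1, which encodes TIAR, by 0.01 ± 0.15 (adjusted p = 0.991), with values from -0.192 to 0.153 when 1 array was left out.

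Of 41 stress granule proteins 5 rose and 7 fell, or 29.3%, against 16.0% of all genes, and 1 and 7 held. The shares are not like for like, as 38 of the 41 had a mean above the median of all values. Brighter genes were called more often, and an excess over genes of like signal was not tested. The rises numbered 1 without vehicle replicate 3 or arsenite replicate 2 and 0 without arsenite replicate 1 or arsenite replicate 3. The falls numbered 16 without vehicle replicate 3, 4 without arsenite replicate 2 or vehicle replicate 2 and 3 without arsenite replicate 3 or vehicle replicate 1. TAF15, an RNA-binding protein, gave 11.66, 11.49 and 11.21 against 10.70, 10.57 and 10.60, a change of -0.83 ± 0.12 (adjusted p = 0.000347). DDX3X, an RNA helicase, fell by 0.85 and CAPRIN1, the partner of G3BP1, by 0.40. CAPRIN1 was 0.02 ± 0.08 (adjusted p = 0.897) in input. Of the 41 genes 9 fell and 3 rose in input, and 7 fell and 6 rose in the TIAR RIP. The test of the difference from input called 7 of them higher and 6 lower. ATXN2L, the rise that held, changed by 0.30, with adjusted p from 0.0508 to 0.0708 without arsenite replicate 1, arsenite replicate 3 or vehicle replicate 1.

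The integrated stress response runs from phosphorylated eIF2 to the factor ATF4. ATF4 gave 7.59, 7.38 and 7.81 against 8.79, 8.71 and 8.64, a change of 1.12 ± 0.12 (adjusted p = 2.95e-05). In input it rose by 2.12, and the G3BP1 change was the smaller of the 2 (adjusted p of the difference = 0.00093). ATF5, a related factor, rose by 0.53 in the G3BP1 RIP and fell by 0.37 in input. EIF2S3, the gamma subunit of eIF2, gave 12.40, 12.42 and 12.19 against 11.92, 11.77 and 11.87, a change of -0.49 ± 0.09 (adjusted p = 0.00158), and PSAT1, of serine synthesis, fell by 0.62. In all 6 of 34 members rose and 5 fell, and the falls numbered 3 without arsenite replicate 1, arsenite replicate 2, arsenite replicate 3, vehicle replicate 1 or vehicle replicate 2.

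EIF4EBP2, a repressor of the cap-binding factor eIF4E, gave 9.88, 9.92 and 9.55 against 11.14, 10.91 and 10.89, a change of 1.20 ± 0.11 (adjusted p = 8.44e-06). In input it fell by 0.50 and in the TIAR RIP it fell by 0.44. EIF4EBP1, its paralog, rose by 0.67 and EIF4E2, a cap-binding repressor, by 0.62. Of 48 translation factors 4 rose and 5 fell, while the rises numbered 8 without vehicle replicate 1 and 7 without vehicle replicate 2 and the falls 12 without vehicle replicate 3, 2 without arsenite replicate 2 and 3 without vehicle replicate 1 or vehicle replicate 2. Among 57 mRNA decay and repression factors 5 rose and 9 fell. The rises there numbered 1 without vehicle replicate 3 or arsenite replicate 1 and 2 without arsenite replicate 2, and the falls 14 without vehicle replicate 3, 4 without arsenite replicate 2 or vehicle replicate 2 and 5 without arsenite replicate 3 or vehicle replicate 1. The rise that held there was PATL1, a decapping scaffold (0.51), and EDC4, another decapping scaffold, gave 11.47, 11.35 and 11.36 against 10.91, 10.91 and 10.91, a change of -0.48 ± 0.06 (adjusted p = 0.000121). UPF1, the helicase of nonsense-mediated decay, fell by 0.52, and EXOSC9, of the RNA exosome, by 0.85. Of the 57 decay and repression factors 15 fell and 2 rose in input, and 11 fell and 5 rose in the TIAR RIP. The test of the difference from input called 14 of them higher and 6 lower.

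In some lists of regulatory genes the falls in input outnumbered the changes in the RIP. These input counts, and the counts above input, include arsenite input replicate 1, which stood apart from its group. They are not given without it. In the MAP kinase cascade 7 of 42 rose with arsenite and 1 fell, a share called near the 16.0% of all genes. The rises numbered 4 without arsenite replicate 1, and the falls 5 without vehicle replicate 3. In input 25 fell and 0 rose, and 21 members had a G3BP1 change above their input change, against 17.0% of all genes. MKNK2, a kinase of eIF4E, gave 10.14, 10.07 and 9.73 against 10.49, 10.52 and 10.37, a change of 0.48 ± 0.11 (adjusted p = 0.00671), and fell by 0.71 in input. The difference was 1.19 ± 0.15 (adjusted p = 0.000121). MAPKAPK2, downstream of p38, rose by 0.64 and fell by 0.56 in input.

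Of 298 C2H2 zinc finger genes 18 rose with arsenite and 7 fell, and 8 rises held. The rises numbered 9 without vehicle replicate 3, 5 without arsenite replicate 1 and 8 without arsenite replicate 2, and the falls 22 without vehicle replicate 3, 1 without arsenite replicate 2, arsenite replicate 3 or vehicle replicate 1 and 2 without vehicle replicate 2. In input 57 of them fell, and 49 had a G3BP1 change above their input change, a share near the 17.0% of all genes. ZNF462 gave 10.50, 10.42 and 10.12 against 10.84, 10.73 and 10.86, a change of 0.46 ± 0.11 (adjusted p = 0.01), against -0.65 in input. Of 96 ubiquitin ligases and deubiquitinases 3 rose and 11 fell, and 33 fell in input. The rises in that list numbered 1 without arsenite replicate 1 or arsenite replicate 3, and the falls 24 without vehicle replicate 3. USP12, a deubiquitinase, rose by 0.61 and fell by 0.50 in input, whereas USP7, which stabilises MDM2, fell by 0.85 here and fell by 1.03 in input.

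Over all transcript clusters the G3BP1 change differed from the input change at 3721 (16.9%), with 3137 above (14.3%) and 584 below (2.65%). Without vehicle replicate 3 the counts were 2819 (12.8%) and 1089 (4.95%), or 17.8% in all. Leaving out arsenite input replicate 1, which stood apart from its group, gave 2578 above and 935 below. Among genes 2421 were above (17.0%) and 319 below (2.24%), or 19.3% in all. Median centring took the median of this difference over transcript clusters from 0.047 to -0.105. It gave 1475 below and a share above of 65.9% of calls, against 84.3%. The input and G3BP1 arrays were set against each other only through their own arsenite differences. LRRC8B, a subunit of a volume-regulated anion channel, gave 9.07, 9.28 and 8.81 against 10.35, 10.24 and 10.15, a change of 1.19 ± 0.24 (adjusted p = 0.00312), and fell by 0.88 in input. MMD, a Golgi membrane protein of the PAQR family, gave 9.29, 9.19 and 9.20 against 10.32, 10.30 and 10.11, a change of 1.02 ± 0.12 (adjusted p = 4.32e-05), and fell by 0.86 in input. IK, a spliceosomal protein, gave 10.50, 10.36 and 10.05 against 9.21, 9.13 and 9.11, a change of -1.15 ± 0.16 (adjusted p = 0.000256), and rose by 0.61 in input. FUBP1, a binder of single-stranded DNA and RNA, fell by 1.00 and rose by 0.48 in input.

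Against the TIAR RIP the G3BP1 change differed at 2994 transcript clusters (13.6%), with 1882 above (8.55%) and 1112 below (5.05%). Without vehicle replicate 3 the counts were 1841 (8.36%) and 2194 (9.97%), or 18.3% in all. Among genes 1454 were above (10.2%) and 654 below (4.60%), or 14.8% in all. POMK, a kinase of dystroglycan glycosylation, gave 9.43, 9.46 and 8.86 against 10.45, 10.39 and 10.41, a change of 1.17 ± 0.16 (adjusted p = 0.000222), and fell by 0.87 in the TIAR RIP and by 0.85 in input. EXOSC9 gave 11.57, 11.59 and 11.38 against 10.69, 10.84 and 10.46, a change of -0.85 ± 0.14 (adjusted p = 0.00101), and rose by 1.44 in the TIAR RIP. AATF, a nucleolar protein, gave 11.91, 11.81 and 11.54 against 10.88, 10.85 and 10.88, a change of -0.89 ± 0.09 (adjusted p = 2.55e-05), and rose by 0.97 in the TIAR RIP. SSB, the La protein that binds the ends of RNA polymerase III transcripts, fell by 0.70 here and rose by 1.23 there. Each of these 4 genes moved in opposite directions in the RIPs. They were picked from genes with that difference called, so the call is a condition and not a result. With the spread of the 6 arrays alone the limma adjusted p of the G3BP1 change was 0.118 for SSB. It was 0.0282, 0.0299 and 0.025 for POMK, EXOSC9 and AATF.

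**Figure D5:**
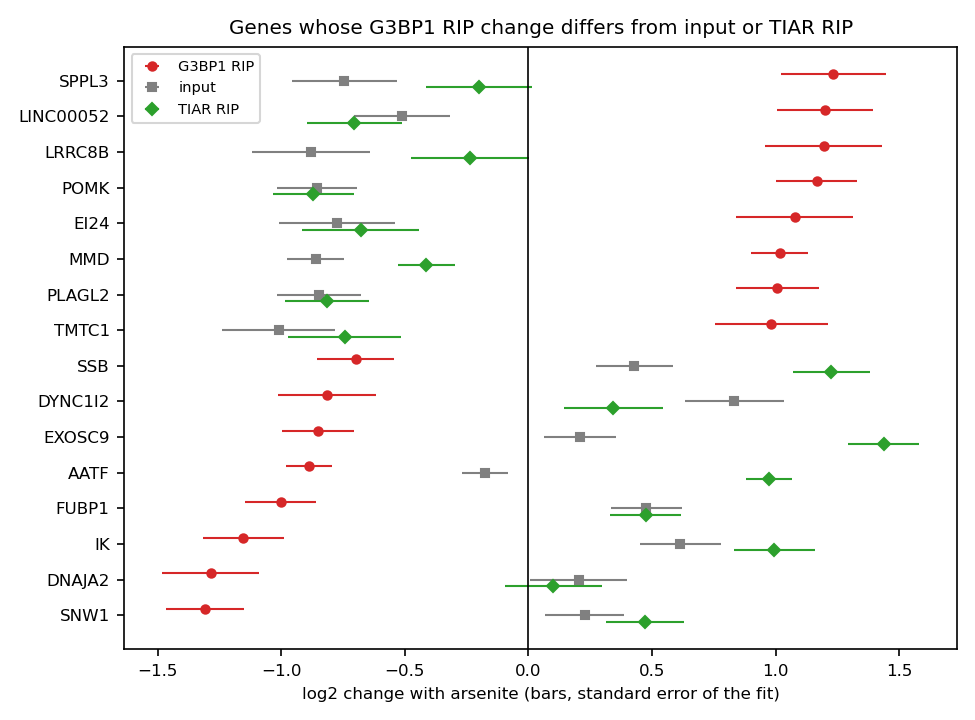
Log2 change with arsenite (horizontal axis) in the G3BP1 RIP, input and the TIAR RIP for the genes whose G3BP1 change differed most from input or from the TIAR RIP (vertical axis). POMK lies at 1.17 in the G3BP1 RIP against -0.85 and -0.87, and EXOSC9 at -0.85 against 0.21 and 1.44.

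Some calls were lost without vehicle replicate 3. The 8 such genes named here also lost them without arsenite replicate 1 (adjusted p from 0.0667 to 0.161), and all but COX14 without at least 1 further array. PGAP1, an ER enzyme that remodels membrane anchors, gave 6.97, 7.07 and 5.46 against 7.91, 7.70 and 7.69, a change of 1.26 ± 0.38 (adjusted p = 0.0379), and 0.75 ± 0.31 (adjusted p = 0.128) without vehicle replicate 3. BTBD6, an adaptor of ubiquitin ligases, gave 10.38, 10.19 and 8.73 against 11.07, 10.79 and 10.44, a change of 1.00, and 0.48 ± 0.17 (adjusted p = 0.0599) without it. In these genes, as in LSM5 and COX14, vehicle replicate 3 lay more than 1 log2 unit below the other vehicle arrays. OXSR1, a stress kinase, gave 9.70, 9.61 and 10.05 against 9.36, 9.42 and 9.34, a change of -0.41, and -0.28 ± 0.10 (adjusted p = 0.0726) without it. HSPD1, the mitochondrial chaperonin, SF3A3, a splicing factor, and RPS10P7, a ribosomal pseudogene, also lost their lower calls without it. In the DNA repair list 3 of 55 fell with all arrays and 20 without vehicle replicate 3, with rises going from 1 to 3 without vehicle replicate 1. In the list of mitosis and cytokinesis 4 of 51 fell and 4 rose, the falls numbering 19 without vehicle replicate 3 and 2 without arsenite replicate 1, arsenite replicate 2, arsenite replicate 3, vehicle replicate 1 or vehicle replicate 2 and the rises 2 without vehicle replicate 3 and 1 without arsenite replicate 1 or arsenite replicate 2.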

How the data were processed

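The files hold log2 signals of 22011 transcript clusters on 18 Affymetrix exon arrays, which the authors made with RMA in Affymetrix Expression Console, per the submitters' processing notes. No version is named there, and joint or separate normalisation of the arrays is not stated. The deposited log2 values run from 1.64 to 14.53 and were used without rescaling. The means of the 6 groups were fitted to all 18 arrays with limma 3.58.1 (R 4.3.3; lmFit and eBayes, 12 residual and 2.61 prior degrees of freedom), with differences between arsenite changes as interaction contrasts. The threshold was a Benjamini-Hochberg adjusted p of 0.05 over all transcript clusters. The number of arrays limits the precision: an exact permutation test of 3 against 3 arrays cannot go below p = 0.1. The SEs and p-values rest on 1 spread per transcript cluster, pooled within groups over all 18 arrays, input and TIAR arrays among them. With the 6 G3BP1 arrays alone the limma adjusted p was 0.0127 for FOS, 0.0188 for XRCC4 and 0.113 for MKNK2. Of 182 called named genes 106 kept the call that way, and of all 3189 called transcript clusters 843 did (26.4%). Separate cultures of the replicates are not described by the labels. The fit was tested on simulated data.

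Genes were named from the platform annotation: 14432 transcript clusters had a single symbol, 2408 several and 5171 none, and a gene took its brightest transcript cluster. The group comparison and the 42 gene lists were chosen with earlier results of these data known. Named genes were: the 15 largest changes each way among genes called with and without vehicle replicate 3, with groups that did not overlap and a higher group mean at or above 7.88; up to 4 members of each list with the smallest p; up to 4 each way that lost their call without that array; up to 5 each way, among the genes called with and without that array, that differed from input or from the TIAR RIP; and G3BP1, G3BP2, TIA1, TIAL1, ECT2, AURKB, EGR1, FOS and MALAT1. Motifs were searched with Python 3.11.15 and pandas 2.3.3. Alternatives were other scalings, filters, priors, array weights, a replicate block, and leaving arrays out.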

Additional observations from a re-analysis of the deposited data

Results flagged for a closer look

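The G3BP1 change was set against the other arsenite changes by a test of the difference itself, in limma over all transcript clusters. It differed from the input change at 3721 transcript clusters. The genes furthest above input were LRRC8B (2.07), POMK (2.02), TMTC1 (1.99), SPPL3 (1.98) and MMD (1.88), as log2 differences between the changes. Those furthest below were IK (-1.77), DYNC1I2 (-1.65), SNW1 (-1.53), DNAJA2 (-1.49) and FUBP1 (-1.48). The 5 above are membrane proteins, which was seen after the genes were listed.

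The change differed from that in the TIAR RIP at 2994 transcript clusters. Furthest above were POMK (2.04), the noncoding RNA LINC00052 (1.90), PLAGL2 (1.82), EI24 (1.75) and TMTC1 (1.73). Furthest below were EXOSC9 (-2.29), IK (-2.15), SSB (-1.92), AATF (-1.86) and SNW1 (-1.78). These comparisons with input and the TIAR RIP share the 6 G3BP1 arrays. Without vehicle replicate 3 the G3BP1 changes of EI24 and TMTC1 were 0.70 and 0.65, against 1.08 and 0.98. The call of the DYNC1I2 change itself was lost without arsenite replicate 3 (adjusted p = 0.0539).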

How the results depend on the processing

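For the G3BP1 change, 866 transcript clusters were called with the compared groups alone (605 higher, 261 lower), which has fewer arrays to estimate the spread, and 6489 with array weights (3386 lower), which gave vehicle replicate 3 a weight of 0.0925. Lower calls numbered 1759 after median centring, 2002 after quantile normalization, 1853 after cyclic loess, and 2406 after centring without vehicle replicate 3. Without that array and arsenite input replicate 1, 5464 were called, 2448 higher and 3016 lower. Leaving out single arrays gave 2133 to 3940 calls, 1490 to 2430 higher and 536 to 2105 lower, the extreme being without vehicle replicate 3 for the lower calls. For the difference from input, lower calls numbered 371 with the compared groups alone, 2361 of 5960 with array weights, 1475, 1635 and 1546 under the 3 scalings, 2155 without both arrays and 1760 after centring without vehicle replicate 3. Single arrays left out gave 2802 to 4033 calls, 2346 to 3513 higher and 416 to 1089 lower. For the difference from the TIAR RIP, array weights called 6349 (2992 higher, 3357 lower), the scalings 1712, 1915 and 2044 lower, leaving out both arrays 5447 (2955 lower), and centring without vehicle replicate 3 4774 (2368 lower). Single arrays left out gave 2244 to 4035 calls, 1323 to 2063 higher and 844 to 2194 lower. Apart from these, the cause of the shifts was not tested.

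A replicate block gave 2109 higher and 779 lower calls for the G3BP1 change, 2884 and 505 for the difference from input, and 1691 and 969 for that from the TIAR RIP. Deviations of same-numbered arsenite and vehicle G3BP1 arrays correlated at 0.242, -0.254 and 0.158, and not every array correlated best with its own number. With 3 arrays per group and vehicle replicate 3 apart, these values cannot tell whether same-numbered arrays shared a culture. Pairs with input or TIAR arrays were not checked. No named gene that was called changed direction under any alternative, whereas TIAL1, KDR, PECAM1 and VWF, which were not called, changed sign when 1 array was left out. Of 182 called ones 153 kept the call with each of the 6 arrays left out in turn and 106 with the compared groups alone. Many named genes were picked for a small p or for keeping the call without vehicle replicate 3, which favours keeping it. Of all 3189 calls 843 (26.4%) were kept with the compared groups alone, and 66 to 83.4% with 1 of the 6 arrays left out. Counting all transcript clusters of a symbol gave 2291 genes called, against 2283. Classes by protein length were not run. Classes by input change, gene type and the list counts under further settings were chosen after seeing the data.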

Other observations

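In the lists of mitosis, histones and DNA repair the members with the smallest p moved both ways. MKI67, the proliferation antigen, gave 11.68, 11.75 and 11.36 with vehicle and 12.50, 12.31 and 12.47 with arsenite, a change of 0.83 ± 0.10 (adjusted p = 5.67e-05) in limma with all arrays. CIT, the citron kinase of cytokinesis, fell by 0.62, and NUF2, a kinetochore subunit, by 1.01. The histone genes H2AC16 and H2AC21 rose by 0.71 and 0.76 and the linker histone gene H1-1 fell by 0.86, with signal shared between histone copies uncertain. TP53BP1, a DNA damage adaptor, gave 11.40, 11.28 and 10.73 against 10.29, 10.10 and 10.11, a change of -0.97 ± 0.16 (adjusted p = 0.000894), and fell by 0.63 in input. AURKB and ECT2, regulators of cytokinesis, changed by 0.25 ± 0.08 (adjusted p = 0.0609) and -0.18 ± 0.25 (adjusted p = 0.759).

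In sterol metabolism LSS, which makes lanosterol, gave 11.28, 11.14 and 10.79 against 10.53, 10.53 and 10.46, a change of -0.56 ± 0.10 (adjusted p = 0.00121), while the sterol sensor SCAP and the transcription factor SREBF1 rose, by 0.38 and 0.47. Mitochondrial ribosomal proteins had 9 of 66 members higher and 3 lower with all arrays, or 18.2%, near the 16.0% of all genes. The lower count was 15 without vehicle replicate 3 and 1 without arsenite replicate 1, arsenite replicate 3 or vehicle replicate 2. MRPL34 gave 11.73, 11.73 and 11.41 against 12.59, 12.39 and 12.39, a change of 0.83 ± 0.10 (adjusted p = 5.83e-05). Of 316 long noncoding RNA genes 9 rose and 1 fell, against 1679 and 584 of 13733 protein-coding genes. These counts are not like for like, as the median signal was 6.407 in the noncoding and 8.255 in the protein-coding genes. Brighter genes were called more often, and a difference at like signal was not tested.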
